A study of Mus musculus with 12 samples.

Results

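The SNAREs, synaptotagmins and exocytosis proteins were taken as every gene of the table whose symbol named a synaptotagmin (Syt), a synaptotagmin-like protein (Sytl), a syntaxin (Stx), a syntaxin-binding protein (Stxbp), a VAMP, a SNAP, a complexin (Cplx), a CAPS protein (Cadps) or a Munc13 protein (Unc13). This gave 52 of 16385 genes, and 47 of them, among 12578 genes in all, reached 1 FPKM (fragments scaled to the length of the transcript and to all mapped fragments, a level per length) in at least 2 libraries and were tested. RNA was sequenced from 12 libraries of AtT-20 cells, a mouse pituitary tumour line used as a model of the corticotrope, the cell that secretes ACTH. The lines were pools of resistant colonies infected with pLNCX2 retroviral vectors in which a CMV promoter drove the transgene, with 3xFlag at both ends of the Pax7 constructs as the methods describe them, selected with Geneticin and grown in DMEM with fetal bovine serum. The 6 groups of 2 libraries were Pax7 NoTag (a Pax7 labelled as having no tag and given no isoform), Pax7-465 (Pax7 ending at residue 465, without the rest of its C-terminus), Pax7 Q-GL-, Pax3 (the close relative of Pax7), Pax7 Q+GL+ and Pax7 Q-GL+, where Q is a glutamine and GL a glycine-leucine pair that splicing adds to the DNA-binding paired domain. Cells without a transgene were not analysed here, so every comparison set one transgene against another, and nothing in the labels says that the 2 libraries of a group came from separate infections. The p-values therefore measure the spread between these libraries, which may be technical.

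Vesicle fusion is driven by SNARE proteins: an R-SNARE of the vesicle (a VAMP) zips up with Q-SNAREs of the target membrane (syntaxins and SNAPs). Syntaxin-binding proteins of the Munc18 kind guide the assembly, CAPS and Munc13 proteins prime vesicles for release, complexins hold the assembled bundle, and synaptotagmins sense the calcium that triggers fusion. In pituitary endocrine cells this machinery releases dense-core granules that carry peptide hormones, and synaptotagmin-like proteins tether such granules through the small GTPase Rab27.

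The NoTag libraries stood apart from the other 10 before any comparison was made. Their values summed to 627305 to 666609 FPKM, against 413794 to 483161 FPKM in the other 10 libraries, and 733 genes had a value only there, being above 0 in each NoTag library and listed at 0 elsewhere. Markers of the corticotrope were present in every library: Pomc, the ACTH precursor, lay at 10547 to 10680 FPKM in the NoTag libraries and at 5112 to 9158 FPKM in the others, and the transcription factor Tbx19 at 139.5 to 143 FPKM in NoTag and 116 to 134 FPKM in the others. The CRH receptor gene Crhr1, also a corticotrope marker, stayed at 0.484 FPKM or below throughout. Pax7 itself was at 157 to 159 FPKM in NoTag, 93.9 to 113 FPKM in the other Pax7 groups and 0.159 to 0.161 FPKM in Pax3 cells, which fits the labels, while the Pax3 gene was not analysed here. Of the markers of other cells, 2 of 3 for leukocytes summed to 1.62 to 2.04 FPKM in NoTag and 0.275 to 1.39 FPKM in the other libraries, 2 of 5 for fibroblasts to 0.499 to 0.817 FPKM in NoTag and 0.414 to 1.07 FPKM in the others, 1 of 3 for endothelium to at most 0.150 FPKM and 2 of 8 for other pituitary cells to at most 0.146 FPKM, with Lhb listed at 0 throughout; the rest of these lists were not analysed here. The test of variation among groups was therefore made over the 5 groups other than NoTag, and NoTag is described at the end.

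Most of the members were expressed, and many of them at high levels. Members are only those genes of these families that had values in the data. Stx1a, Vamp7 and Cadps2 were among the genes without values, so their expression is unknown here, and the share expressed is not that of the whole machinery. The median member had 19.2 FPKM over the 10 libraries other than NoTag, against 11.7 FPKM for all genes tested, with 23 members at 20 FPKM or more and 8 below 5 FPKM. The median ratio of the highest to the lowest of the 5 group means was 1.23 for members and 1.20 for all genes. The 5 members that were not tested were Stx19, listed at 0 in every library, and Stxbp6, Syt6, Unc13d and Sytl3, none of which passed the level filter.

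**Figure D1:**
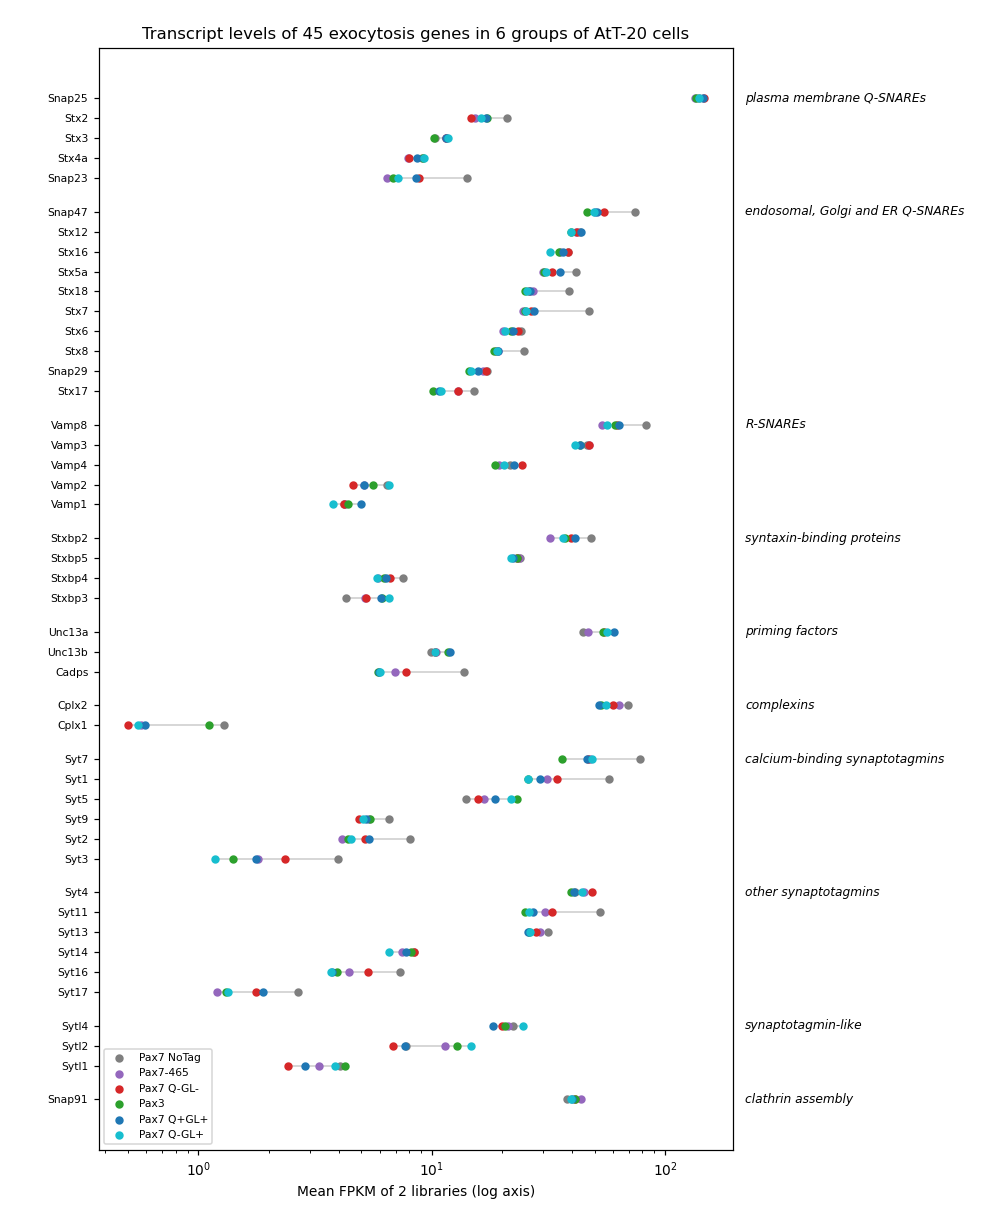
Mean FPKM of 2 libraries (log axis) for 45 of the 47 exocytosis genes tested, one row per gene grouped by role and one coloured point per group. Points of a row lie close together for most genes, Snap25 lies farthest right at about 140.1 FPKM, and the grey NoTag points stand to the right of the others for Cadps, Syt1, Syt7, Syt11 and Stx7.

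Among the Q-SNAREs of the plasma membrane, Snap25, which supplies SNARE helices to the fusion of secretory granules, had the highest level of all members. It had 140.0 and 140.2 FPKM in NoTag, 130.9 and 136.6 in Pax7-465, 145.2 and 147.7 in Q-GL-, 132.3 and 138.8 in Pax3, 140.9 and 148.8 in Q+GL+ and 140.8 and 138.6 in Q-GL+. Some groups overlapped, but both Q-GL- libraries lay above those of every group except Q+GL+. The highest of the 5 group means was 1.10 times the lowest. Its widely expressed relative Snap23 averaged 7.57 FPKM over the 10 libraries, and the plasma membrane syntaxins Stx2, Stx3 and Stx4a averaged 16.1, 11.3 and 8.61 FPKM.

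The Q-SNAREs of endosomes, the Golgi and the endoplasmic reticulum had 10 members, all tested, and their means over the 10 libraries ran from 11.6 FPKM (Stx17, of autophagosomes) to 50.3 FPKM (Snap47). Snap47 had 75.3 and 73.5 FPKM in NoTag, 47.7 and 52.7 in Pax7-465, 55.8 and 53.2 in Q-GL-, 42.9 and 49.7 in Pax3, 48.6 and 53.8 in Q+GL+ and 49.9 and 49.0 in Q-GL+, so that only NoTag stood clear of the rest. The ratio of the highest to the lowest of the 5 group means stayed between 1.03 (Stx8, of late endosomes) and 1.28 (Stx17) in this class. Of the R-SNAREs, Vamp8, of late endosomes and granules, averaged 59.3 FPKM, Vamp3, the cellubrevin of recycling endosomes, 44.4 FPKM and Vamp4, of the trans-Golgi network, 21.1 FPKM. Vamp2, the synaptobrevin of regulated secretion, was measured at only 5.40 FPKM and with a wide spread, since its Q-GL+ libraries had 4.92 and 8.20 FPKM.

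Vamp8 had 82.7 and 83.2 FPKM in NoTag, 54.0 and 53.4 in Pax7-465, 63.0 and 61.3 in Q-GL-, 55.1 and 66.5 in Pax3, 61.5 and 64.9 in Q+GL+ and 58.1 and 54.8 in Q-GL+. The syntaxin-binding protein Stxbp2 (Munc18-2) led its class with 45.5 and 50.7 FPKM in NoTag, 31.2 and 32.9 in Pax7-465, 39.8 and 39.2 in Q-GL-, 35.1 and 39.5 in Pax3, 40.8 and 41.6 in Q+GL+ and 38.9 and 34.4 in Q-GL+. For both genes the NoTag libraries were above the other 10, as they were for 41.3% of all genes tested. In NoTag against Q+GL+ Vamp8 was called and Stxbp2 was not. Stxbp5 (tomosyn, an inhibitor of SNARE assembly) averaged 22.8 FPKM, with group means within 1.08 times of one another in the 5 groups.

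Of the priming factors, Unc13a (Munc13-1) had 43.3 and 46.1 FPKM in NoTag, 47.6 and 45.7 in Pax7-465, 50.8 and 58.1 in Q-GL-, 52.4 and 55.8 in Pax3, 58.2 and 62.5 in Q+GL+ and 55.2 and 57.7 in Q-GL+. It was lowest in NoTag and Pax7-465, whose libraries overlapped each other but lay below the other 8. Complexin 2 (Cplx2) had 68.6 and 69.9 FPKM in NoTag, 64.8 and 62.4 in Pax7-465, 55.4 and 64.0 in Q-GL-, 51.0 and 55.6 in Pax3, 52.3 and 51.4 in Q+GL+ and 58.5 and 53.5 in Q-GL+. Complexin 1 (Cplx1) was near the limit, and reached 1 FPKM only in NoTag (1.24 and 1.33) and in Pax3 replicate 1 (1.5003), so it was tested through the groups where it was high. Snap91, which the symbol rule matched, is a clathrin assembly protein of endocytosis and no SNARE. It averaged 41.1 FPKM, with group means within 1.10 times of one another.

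The members called by a test over the 5 groups were synaptotagmins and a synaptotagmin-like protein. A moderated F test (limma, adjusted over all genes tested) called 5 of 47 members at an adjusted p under 0.05, 10.6%, against 4.78% of all 12578 genes. All 5 were among the 15 synaptotagmins and synaptotagmin-like proteins tested, and 0 of the other 32 members passed. The nearest of these 32 were Vamp4 (adjusted p = 0.095) and Cadps (adjusted p = 0.098). Both were called in Q-GL- against Pax3, and Cadps also in NoTag against Q+GL+, as given further on. The family was not tested against the other members. At an unadjusted p under 0.05 the members called were 18 (38.3%), against 19.5% of all genes. The members called, in order of F, were Sytl2 (F = 47.3, adjusted p = 0.000148), Syt5 (F = 21.8, adjusted p = 0.0026), Syt7 (F = 14.4, adjusted p = 0.0094), Syt1 (F = 11.1, adjusted p = 0.020) and Syt11 (F = 8.50, adjusted p = 0.041). Sytl2, Syt5 and Syt7 kept their calls without any 1 of the 10 libraries. Syt1 lost its call when a library of Q-GL- or Q-GL+ was left out, whichever of the 4, and Syt11 without any 1 of the 10 except Q+GL+ replicate 1 (adjusted p of 0.016 to 0.109 for Syt1 and 0.042 to 0.179 for Syt11 over the libraries left out). The call of Syt11 was also lost after quantile normalization, without the trend, with any gene above 0 kept and without the NoTag libraries in the fit. In bulk RNA, fewer cells that express a gene and less RNA per cell cannot be told apart.

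Other fusion and tethering genes outside the symbol rule were set beside the members: NSF and its adaptors, Golgi SNAREs with other names, the exocyst, active-zone proteins and the secretory carrier proteins. Of 44 tested, 1 passed the F test (2.27%), the Golgi Q-SNARE gene Gosr1 (adjusted p = 0.0067). Gosr1 had 11.4 and 12.4 FPKM in NoTag, 8.58 and 8.26 in Pax7-465, 12.2 and 13.3 in Q-GL-, 8.83 and 9.19 in Pax3, 7.82 and 7.87 in Q+GL+ and 9.23 and 8.03 in Q-GL+. The libraries of Q-GL- and NoTag were thus above all others for this gene, and in Q-GL- it exceeded the level of Q-GL+ (log2 fold change 0.52 ± 0.09 SE, adjusted p = 0.0062) and that of Q+GL+ (0.64 ± 0.09, adjusted p = 0.0023).

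Sytl2 (Slp2-a), a Rab27 effector that brings granules to the plasma membrane, showed the widest range of the members called. It had 7.69 and 7.88 FPKM in NoTag, 11.8 and 11.1 in Pax7-465, 6.80 and 6.88 in Q-GL-, 13.7 and 11.9 in Pax3, 7.26 and 8.17 in Q+GL+ and 14.5 and 15.03 in Q-GL+. The libraries fell into a low range (NoTag, Q-GL- and Q+GL+, up to 8.17 FPKM) and a high range (Pax7-465, Pax3 and Q-GL+, from 11.1 FPKM), with nothing between. The order of the group means was Q-GL+ (14.8 ± 0.399, SD), Pax3 (12.8 ± 1.25), Pax7-465 (11.4 ± 0.485), NoTag (7.79 ± 0.131), Q+GL+ (7.72 ± 0.648) and Q-GL- (6.84 ± 0.0598, n = 2 each). Within the high range Pax3 did not pass the test against Q-GL+ (log2 fold change -0.19 ± 0.09 SE, adjusted p = 0.50), nor did Pax7-465 against Q-GL+ (-0.34 ± 0.09, adjusted p = 0.13), nor within the low range Q-GL- against Q+GL+ (-0.15 ± 0.09, adjusted p = 0.50).

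Across the ranges Sytl2 passed every test made. It fell by 1.01 in log2 in Q-GL- relative to Q-GL+ (SE 0.09, adjusted p = 5.79e-05), by 0.82 in Q-GL- relative to Pax3 (adjusted p = 0.00033) and by 0.86 in Q+GL+ relative to Q-GL+ (adjusted p = 0.0012). These 3 calls held under every alternative setting and every library left out. It rose by 0.67 in Pax3 relative to Q+GL+ (adjusted p = 0.022), by 0.51 in Pax7-465 relative to Q+GL+ (adjusted p = 0.016) and by 0.66 in Pax7-465 relative to Q-GL- (adjusted p = 0.0071). The last 3 each lost the call without any of 3 of the 4 libraries compared: all but Pax3 replicate 2 for Pax3 over Q+GL+ (0.57 to 0.76 over the libraries left out, adjusted p of 0.021 to 0.160), all but Q+GL+ replicate 2 for Pax7-465 over Q+GL+ (0.44 to 0.59, adjusted p of 0.043 to 0.124) and all but Pax7-465 replicate 2 for Pax7-465 over Q-GL- (0.62 to 0.70, adjusted p of 0.032 to 0.095). The comparisons share libraries, so these values are not independent of one another.

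**Figure D2:**
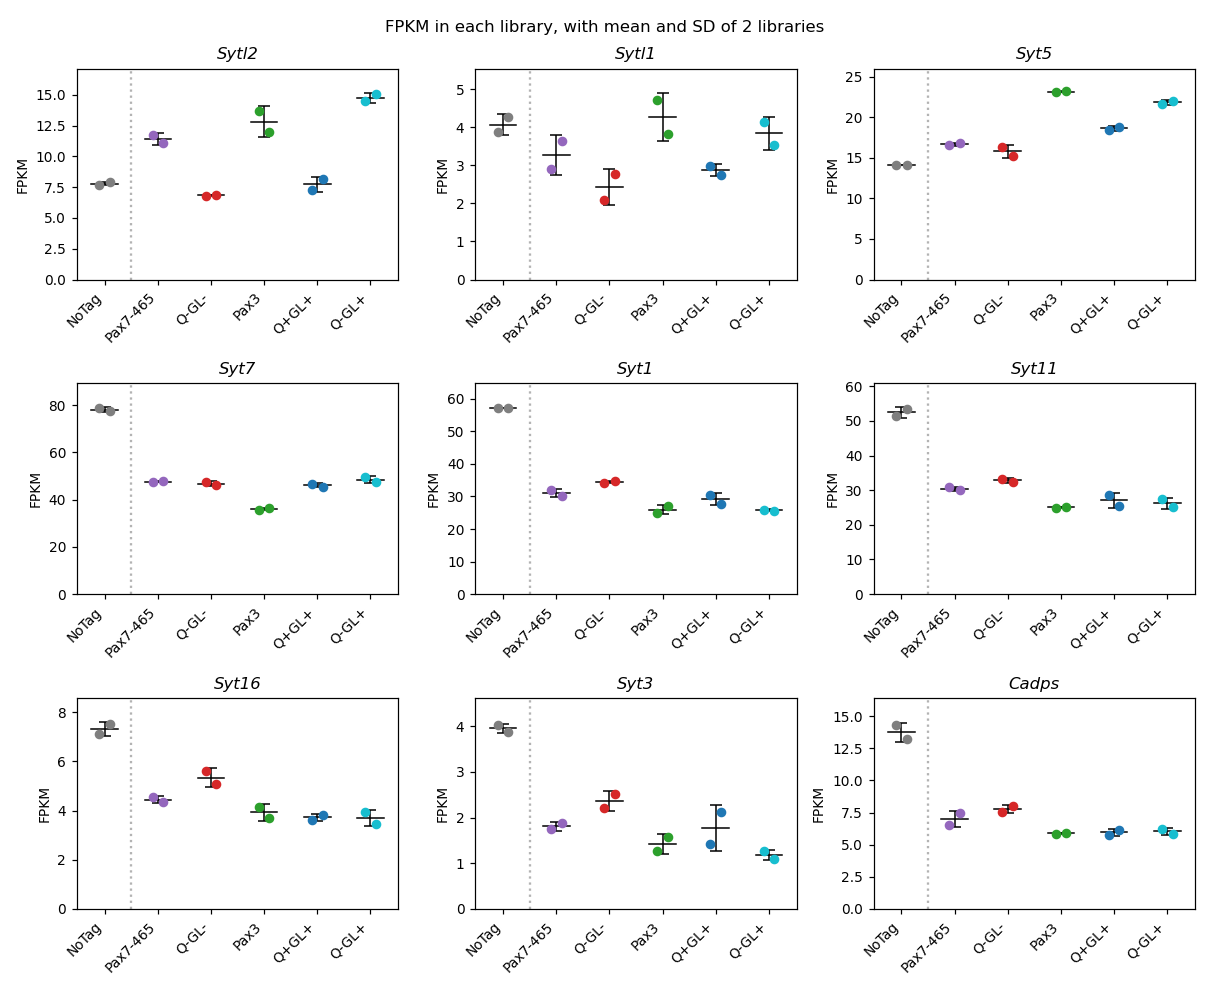
FPKM of each library (points) with the mean (line) and SD (bars) of 2 libraries for Sytl2, Sytl1, Syt5, Syt7, Syt1, Syt11, Syt16, Syt3 and Cadps, with NoTag left of the dotted line. Sytl2 lies at 11.1 FPKM or above in Pax7-465, Pax3 and Q-GL+ and at 8.17 FPKM or below in the rest, Syt7 is low in Pax3, and NoTag is the highest group for Syt7, Syt1, Syt11, Syt16, Syt3 and Cadps and the lowest for Syt5.

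The GL pair was compared in Q-GL- against Q-GL+, whose constructs differ in GL alone. As every group is its own pool of cells, construct and pool cannot be told apart in this or any other comparison. Of 47 members, 6 were called (12.8%), 4 higher and 2 lower in Q-GL-, against 4.17% of all genes (3.06% higher, 1.11% lower), and all 6 were synaptotagmins or Sytl2. The median log2 fold change was 0.09 for members and 0.04 for all genes. Beside Sytl2, Syt5, a calcium-binding synaptotagmin of dense-core granules, was lower in Q-GL-. It had 14.1 and 14.1 FPKM in NoTag, 16.6 and 16.8 in Pax7-465, 16.4 and 15.2 in Q-GL-, 23.1 and 23.2 in Pax3, 18.4 and 18.8 in Q+GL+ and 21.6 and 22.0 in Q-GL+. None of the groups overlapped, but the neighbours Pax7-465 and Q-GL- were close (log2 fold change of Pax7-465 over Q-GL- 0.07 ± 0.07 SE, adjusted p = 0.77). Syt5 fell by 0.44 in Q-GL- relative to Q-GL+ (SE 0.07, adjusted p = 0.0033), and of the 4 libraries only the removal of Q-GL- replicate 2 ended the call (-0.39, adjusted p = 0.052).

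Syt1, Syt11, Syt16 and Syt3 rose in Q-GL- relative to Q-GL+. Syt1, the fast calcium sensor of release, had 57.2 and 57.3 FPKM in NoTag, 32.0 and 30.1 in Pax7-465, 34.3 and 34.6 in Q-GL-, 24.95 and 27.0 in Pax3, 30.4 and 27.8 in Q+GL+ and 26.0 and 25.6 in Q-GL+. Syt11, which lacks a calcium-binding residue of its first C2 domain, had 51.4 and 53.5 FPKM in NoTag, 30.9 and 30.1 in Pax7-465, 33.3 and 32.3 in Q-GL-, 24.9 and 25.1 in Pax3, 28.6 and 25.5 in Q+GL+ and 27.4 and 25.1 in Q-GL+. After NoTag, the libraries of Q-GL- were the highest of both genes, with those of Pax7-465 next for Syt11 and those of Pax3 and Q-GL+ at the low end. In this comparison Syt1 rose by 0.41 in log2 (SE 0.07, adjusted p = 0.0085) and Syt11 by 0.31 (SE 0.08, adjusted p = 0.039).

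Syt16, a relative without calcium-coordinating residues, had 7.14 and 7.52 FPKM in NoTag, 4.53 and 4.34 in Pax7-465, 5.61 and 5.08 in Q-GL-, 4.16 and 3.68 in Pax3, 3.62 and 3.83 in Q+GL+ and 3.94 and 3.47 in Q-GL+. Syt3, a calcium-binding synaptotagmin, was low at 4.03 and 3.88 FPKM in NoTag, 1.74 and 1.87 in Pax7-465, 2.20 and 2.51 in Q-GL-, 1.26 and 1.57 in Pax3, 1.41 and 2.12 in Q+GL+ and 1.26 and 1.09 in Q-GL+. Both genes had their highest values outside NoTag in the Q-GL- libraries. The log2 fold change of Q-GL- over Q-GL+ was 0.43 ± 0.10 for Syt16 (SE, adjusted p = 0.031) and 0.62 ± 0.14 for Syt3 (adjusted p = 0.025). The calls of Syt1, Syt3, Syt11 and Syt16 were each lost without any 1 of the 4 libraries compared, with log2 fold changes of 0.40 to 0.41, 0.56 to 0.69, 0.25 to 0.38 and 0.36 to 0.50 and adjusted p of 0.055 to 0.079, 0.084 to 0.186, 0.076 to 0.289 and 0.073 to 0.243. Those of Syt11 and Syt16 were also lost without the NoTag libraries in the fit, and that of Syt11 after quantile normalization and without the trend.

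With Q and GL both different, Q-GL- against Q+GL+, only Syt16 was called (2.13% of members, 2.15% of all genes; log2 fold change 0.42 ± 0.10 SE, adjusted p = 0.049), and that call was lost without any 1 of the 4 libraries compared (0.36 to 0.48, adjusted p of 0.136 to 0.319), without NoTag or with only these groups in the fit, after median centring, with any gene above 0 kept and with the replicate block. Syt1 and Syt11 had log2 fold changes of 0.24 and 0.27 there and did not pass (adjusted p = 0.14 and 0.11). With GL present in both, Q+GL+ against Q-GL+, the single member called was Sytl2 (2.13% of members, 0.962% of all genes). Its relative Sytl4 (granuphilin, which docks granules) had 17.05 and 19.4 FPKM in Q+GL+, against 26.2 and 23.0 FPKM in Q-GL+, and did not pass (log2 fold change -0.41 ± 0.10 SE, adjusted p = 0.075). In the other groups Sytl4 had 23.3 and 21.2 FPKM in NoTag, 20.3 and 22.2 in Pax7-465, 19.8 and 20.3 in Q-GL- and 19.3 and 21.8 in Pax3.

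**Figure D3:**
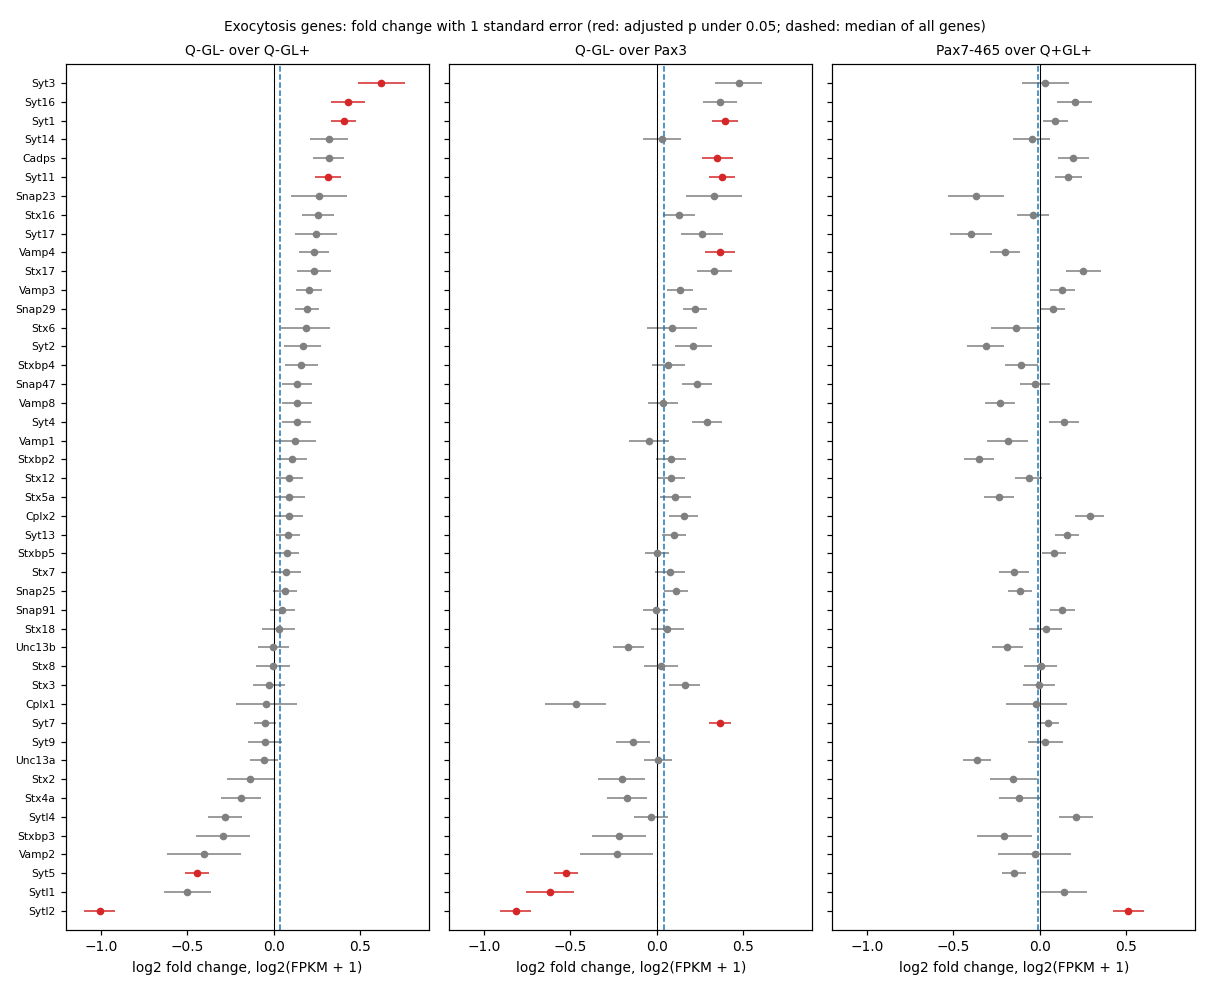
Log2 fold change (on log2(FPKM + 1), points) with 1 standard error (bars) of 45 of the 47 exocytosis genes in Q-GL- over Q-GL+, Q-GL- over Pax3 and Pax7-465 over Q+GL+, in red where the adjusted p was under 0.05, with the median of all genes dashed. Most genes lie near 0, Sytl2 is at the left end of the first 2 panels and alone in red at the right of the third, and the red points are synaptotagmins and their relatives except for Vamp4 and Cadps in the second.

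Sytl2, Syt5 and Sytl1 fell and Syt1, Syt11, Syt7, Vamp4 and Cadps rose in Q-GL- relative to Pax3. Of 47 members, 8 were called (17%), 5 higher and 3 lower in Q-GL-, against 4.33% of all genes (3.62% higher, 0.716% lower). The count was 4 with only the groups compared in the fit. It also fell when Q-GL- replicate 1, Q-GL- replicate 2 or Pax3 replicate 1 was left out. The share of all genes called under these settings is not given here. The lower ones were Sytl2, Syt5 (log2 fold change -0.53 ± 0.07 SE, adjusted p = 0.00098) and Sytl1 (Slp1, also a Rab27 effector; -0.62 ± 0.14, adjusted p = 0.026). Sytl1 had 3.87 and 4.26 FPKM in NoTag, 2.90 and 3.65 in Pax7-465, 2.10 and 2.77 in Q-GL-, 4.71 and 3.82 in Pax3, 2.98 and 2.76 in Q+GL+ and 4.15 and 3.54 in Q-GL+. Its means were thus highest in Pax3, NoTag and Q-GL+ and lowest in Q-GL-, with libraries of neighbouring groups overlapping, and its call was lost without Q-GL- replicate 1 or Pax3 replicate 1 (-0.76 to -0.48 over the libraries left out, adjusted p of 0.024 to 0.201).

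The members higher in Q-GL- than in Pax3 were Syt1 (log2 fold change 0.40 ± 0.07 SE, adjusted p = 0.0093), Syt11 (0.38 ± 0.08, adjusted p = 0.014), Syt7 (0.37 ± 0.06, adjusted p = 0.0068), Vamp4 (0.37 ± 0.09, adjusted p = 0.035) and Cadps (0.35 ± 0.09, adjusted p = 0.0498). Vamp4 had 22.5 and 21.0 FPKM in NoTag, 20.7 and 18.3 in Pax7-465, 23.7 and 24.9 in Q-GL-, 17.8 and 19.5 in Pax3, 21.3 and 23.8 in Q+GL+ and 20.5 and 20.4 in Q-GL+. Cadps (CAPS1, which primes dense-core granules) had 14.3 and 13.2 FPKM in NoTag, 6.54 and 7.44 in Pax7-465, 7.53 and 8.002 in Q-GL-, 5.84 and 5.91 in Pax3, 5.78 and 6.15 in Q+GL+ and 6.22 and 5.82 in Q-GL+. In both genes the Q-GL- and Pax3 libraries did not overlap, while Pax3, Q+GL+ and Q-GL+ overlapped for Cadps. Only Sytl2 and Syt5 kept their calls without any 1 of the 4 libraries. Syt1, Syt11 and Vamp4 lost theirs without Q-GL- replicate 1, Q-GL- replicate 2 or Pax3 replicate 1 (0.34 to 0.45, 0.36 to 0.40 and 0.31 to 0.43, adjusted p of 0.011 to 0.087, 0.034 to 0.115 and 0.036 to 0.214), Syt7 without either Q-GL- library (0.35 to 0.39, adjusted p of 0.013 to 0.073) and Cadps without any of the 4 (0.31 to 0.39, adjusted p of 0.088 to 0.257). The calls of Vamp4 and Cadps were also lost without NoTag or with only these groups in the fit, that of Vamp4 without the trend, and that of Cadps after median centring, without the robust option, with any gene above 0 kept and with the replicate block.

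Syt7, the high-affinity calcium sensor of slow release, was lowest in Pax3. It had 78.7 and 77.4 FPKM in NoTag, 47.4 and 47.9 in Pax7-465, 47.4 and 46.0 in Q-GL-, 35.6 and 36.4 in Pax3, 46.7 and 45.5 in Q+GL+ and 49.5 and 47.3 in Q-GL+. Both Pax3 libraries were below the other 10, and the Pax7 groups other than NoTag lay within 45.5 to 49.5 FPKM and overlapped in part. Besides Q-GL-, Syt7 was called against Pax3 in Pax7-465 (log2 fold change of Pax7-465 over Pax3 0.39 ± 0.06 SE, adjusted p = 0.0099) and in Q-GL+ (Pax3 over Q-GL+ -0.42 ± 0.06, adjusted p = 0.014), both comparisons added after the data were seen. Pax3 over Q+GL+ gave -0.35 ± 0.06 and did not pass (adjusted p = 0.057), and there the single member called was Sytl2 (2.13% of members, 0.262% of all genes).

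In Pax3 against Q-GL+ Syt7 was the single member called (2.13%, against 0.708% of all genes), a call lost without Pax3 replicate 1 or either Q-GL+ library (-0.45 to -0.39, adjusted p of 0.030 to 0.148). In Pax7-465 against Pax3 the members called were Syt7 and Syt5 (4.26%, against 1.16% of all genes), with Syt5 lower in Pax7-465 (-0.45 ± 0.07 SE, adjusted p = 0.0073). Both were lost without either Pax7-465 library (0.38 to 0.41 for Syt7 and -0.46 to -0.44 for Syt5 over the libraries left out, adjusted p of 0.032 to 0.084 and 0.039 to 0.061).

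The C-terminal deletion was compared with the full-length isoforms Q+GL+, Q-GL- and Q-GL+. The labels give Pax7-465 no state of Q or GL, the study's supplement heads the blots of its Pax7 mutants Q+GL-, and full-length Q+GL- cells were not analysed here, so the deletion and a difference in Q or GL cannot be told apart in these comparisons. In Pax7-465 against Q+GL+ and against Q-GL-, Sytl2 alone was called (2.13% of members each, against 1.33% and 0.445% of all genes). In Pax7-465 against Q-GL+, added after the data were seen, Syt5 alone was called (2.13%, against 0.795% of all genes; log2 fold change -0.37 ± 0.07 SE, adjusted p = 0.033), and that call was lost without any 1 of the 4 libraries compared (-0.38 to -0.36, adjusted p of 0.149 to 0.224) and without NoTag or with only these groups in the fit. Unc13a, Stxbp2 and Cplx2 had log2 fold changes of -0.36, -0.35 and 0.29 in Pax7-465 over Q+GL+ and did not pass (adjusted p = 0.055, 0.078 and 0.14).

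The NoTag libraries were compared with Q+GL+. Isoform, tag and any other difference of these libraries cannot be told apart in this comparison. Of 47 members 26 were called (55.3%), 22 higher and 4 lower in NoTag, against 46% of all genes (36.9% higher, 9.02% lower), so the share was not far above that of all genes. The 22 include Cplx1, the single member that passed the level filter only with the NoTag libraries. Over genes that reached 1 FPKM in 2 or more of the other 10 libraries, a count added after the data were seen, 25 of 46 members were called (54.3%), 21 higher and 4 lower, against 45.4% of all 12343 such genes (36.2% higher, 9.2% lower). The median log2 fold change was 0.27 for members and 0.18 for all genes. After median centring 24 members were called (51.1%, against 42.8% of all genes), 14 higher (29.8%, against 21.6%) and 10 lower (21.3%, against 21.2%). After quantile normalization 25 were called (53.2%, against 44.3%), 13 higher (27.7%, against 21%) and 12 lower (25.5%, against 23.4%), so the split between higher and lower depended on the scaling. Under all 3 scalings 17 members were called (36.2%, against 29.4% of all genes), 13 higher (27.7%, against 20.4%) and 4 lower (8.51%, against 9.02%), so neither share was far from that of all genes. The count of members called in the main scaling fell without any 1 of the libraries compared, and the share of all genes called there is not given here. Both NoTag libraries were above the other 10 for 24 of 47 members (51.1%, against 41.3% of all genes) and below them for 1, Syt5 (2.13%, against 9.13%).

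**Figure D4:**
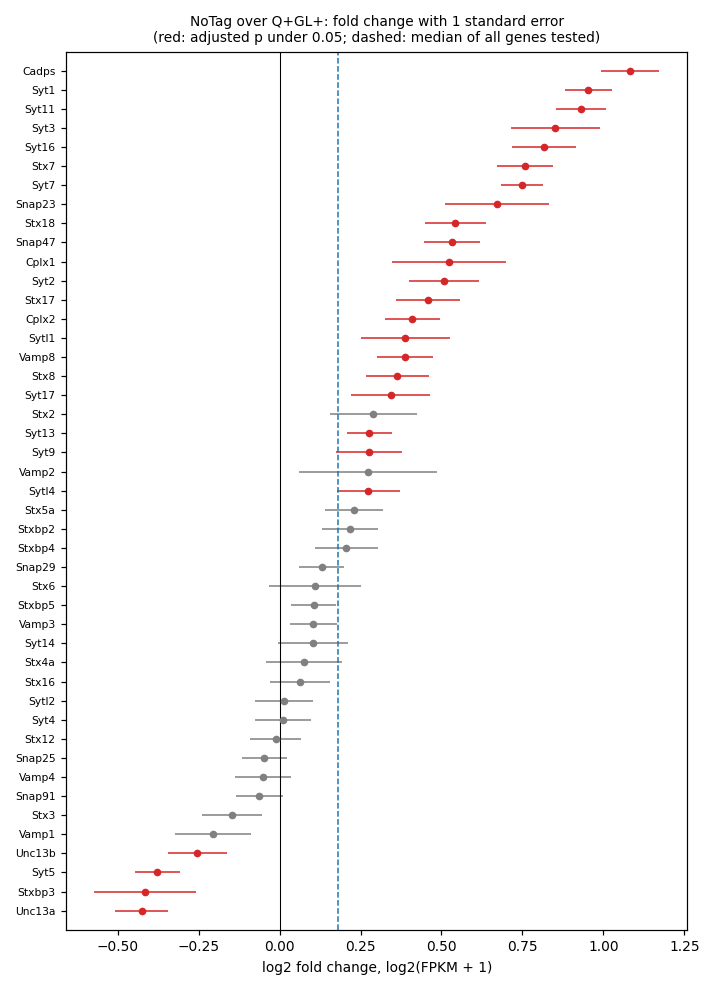
Log2 fold change of NoTag over Q+GL+ (on log2(FPKM + 1), points) with 1 standard error (bars) for 45 of the 47 exocytosis genes tested, in red where the adjusted p was under 0.05, with the median of all genes (0.18) dashed. Cadps, Syt1 and Syt11 lie at the top with 1.08, 0.95 and 0.93, and Unc13a, Stxbp3 and Syt5 at the bottom with -0.43, -0.41 and -0.38.

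Of the members called, Cadps, Syt1, Syt11, Syt3, Syt16, Stx7 and Syt7 had the highest log2 fold changes in NoTag under each of the 3 scalings. Cadps rose by 1.08 in log2 (SE 0.09, adjusted p = 2.06e-06), Syt1 by 0.95 (SE 0.07, adjusted p = 1.06e-06), Syt11 by 0.93 (SE 0.08, adjusted p = 1.81e-06), Syt3 by 0.85, Syt16 by 0.82 and Syt7 by 0.75. After quantile normalization the same genes stood at 0.91, 0.72, 0.69, 0.69, 0.63 and 0.53. For each of them both NoTag libraries were above the other 10. The endosomal Q-SNARE Stx7 had 50.5 and 43.9 FPKM in NoTag, against 26.6 and 28.3 FPKM in Q+GL+ (log2 fold change 0.76, adjusted p = 2.75e-05), and Snap23 had 14.2 and 14.3 FPKM, against 9.03 and 8.13 FPKM (0.67, adjusted p = 0.0053). The rest of the 13 were Stx18, Snap47, Syt2, Stx17 and Vamp8, with 0.54, 0.53, 0.51, 0.46 and 0.39.

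The 4 members lower in NoTag under all 3 scalings were Unc13a (log2 fold change -0.43 ± 0.08 SE, adjusted p = 0.0013), Syt5 (-0.38 ± 0.07, adjusted p = 0.00090), Unc13b (Munc13-2, -0.25 ± 0.09, adjusted p = 0.036) and Stxbp3 (Munc18c, the partner of Stx4, -0.41 ± 0.16, adjusted p = 0.047). Stxbp3 had 4.22 and 4.40 FPKM in NoTag, against 6.56 and 5.63 FPKM in Q+GL+, and its call was lost without any 1 of these 4 libraries (-0.51 to -0.32, adjusted p of 0.057 to 0.226), without the trend or the robust option and with any gene above 0 kept. Unc13b had 9.38 and 10.5 FPKM in NoTag, against 11.6 and 12.4 FPKM in Q+GL+, and its call was lost without NoTag replicate 1 or either Q+GL+ library (-0.33 to -0.18, adjusted p of 0.040 to 0.224). In the main scaling Snap25, Syt4 and Sytl2, with log2 fold changes of -0.05, 0.01 and 0.01, did not pass. Their values under the other scalings are not given here. Syt4, a relative of Syt11 found on immature granules, had 42.3 and 39.6 FPKM in NoTag, 44.7 and 45.2 in Pax7-465, 52.9 and 44.6 in Q-GL-, 38.4 and 40.6 in Pax3, 41.9 and 39.4 in Q+GL+ and 45.2 and 43.2 in Q-GL+. The higher levels of Pomc and of the leukocyte marker Lyz2 in the NoTag libraries moved with these changes, and their part in them was not tested. Lyz2 was low, at 1.24 to 1.48 FPKM in NoTag and at most 0.909 FPKM in the others. The leukocyte marker Cd68 was not higher in NoTag (0.378 to 0.563 FPKM, against 0.185 to 0.658 FPKM).

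Promoters were read from a table of RefSeq sequences (GRCm38.p6, the 250 bases before the start), in which 40 of 52 members were matched. The matched start lay far from the 5' end of the gene for Cplx2 (68793 bases), Stx4a (17514), Syt11 (2565) and Snap47 (1152). These may be starts of other transcripts. Vamp2, Vamp3, Syt4, Syt5, Syt7, Syt13, Syt17, Snap25, Sytl2 and Unc13d were among those not matched. The median GC content of the matched promoters was 60.4%, against 52.4% for all 32851 promoters. Each was searched on both strands for the core of paired domain sites (GTCACGC), the palindromic homeodomain sites with spacings of 2 and of 3, the T-box site (TCACACC), parts of the site of REST, a repressor of neuronal genes (TTCAGCACC and GGACAGCG), and the cyclic AMP response element (TGACGTCA). The paired domain core stood in 2 of 40 (5%), Stxbp3 and Unc13a, against 1.78% of all promoters, the element TGACGTCA in Stxbp3 alone (2.5%, against 1.55%) and GGACAGCG in Syt6 alone (2.5%, against 0.992%), and the others in none of the 40. In all promoters they stood in 0.384%, 0.463%, 3.33% and 0.301%. The 2 sides of these shares, and of the GC content, are unlike sets. Only 1 promoter was taken per member, with the start nearest the 5' end of its gene. All promoters were every distinct sequence of every gene, several for some genes, whether or not the gene was expressed here. A match is a description of letters and not a bound site.

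The promoters of Unc13a and Stxbp3 are shown because they hold the paired domain core, and those of Syt1 and Syt16 because these 2 genes were among the 4 that rose in Q-GL- relative to Q-GL+ and hold none of the motifs. Each is written 5' to 3' on the strand of its gene in lower case, with the matches in capitals. In Unc13a (chr8:71671758-71672007, minus strand) GTCACGC begins 43 bases before the start. In Stxbp3 (chr3:108840503-108840752, minus strand) the capitals join the paired domain core read on the other strand, 111 bases before the start, with the overlapping TGACGTCA, 108 bases before it. Syt1 lies at chr10:109010976-109011225 (minus strand) and Syt16 at chr12:73997527-73997776 (plus strand).
Unc13a: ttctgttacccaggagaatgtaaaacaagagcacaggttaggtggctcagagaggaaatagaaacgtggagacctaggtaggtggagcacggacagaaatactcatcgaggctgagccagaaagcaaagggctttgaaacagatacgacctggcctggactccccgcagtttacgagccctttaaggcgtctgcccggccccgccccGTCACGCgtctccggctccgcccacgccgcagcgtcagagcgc
Stxbp3: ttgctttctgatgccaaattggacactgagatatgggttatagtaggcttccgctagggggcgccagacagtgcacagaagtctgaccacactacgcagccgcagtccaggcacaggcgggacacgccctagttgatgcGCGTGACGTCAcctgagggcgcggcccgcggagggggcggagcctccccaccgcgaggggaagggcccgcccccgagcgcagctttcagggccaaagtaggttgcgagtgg
Syt1: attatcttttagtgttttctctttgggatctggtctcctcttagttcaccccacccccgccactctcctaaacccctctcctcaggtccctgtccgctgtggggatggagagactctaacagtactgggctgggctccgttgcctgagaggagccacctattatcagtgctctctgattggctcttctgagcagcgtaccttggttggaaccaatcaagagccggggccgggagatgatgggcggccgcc
Syt16: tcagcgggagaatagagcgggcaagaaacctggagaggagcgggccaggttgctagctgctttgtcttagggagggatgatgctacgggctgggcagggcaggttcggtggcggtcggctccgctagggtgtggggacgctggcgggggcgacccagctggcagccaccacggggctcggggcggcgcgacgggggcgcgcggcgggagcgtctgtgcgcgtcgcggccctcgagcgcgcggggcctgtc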

How the data were processed

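RNA of 12 libraries of AtT-20 cells was sequenced after ribosomal depletion. The authors trimmed strand-specific paired reads with Trimmomatic, mapped them to mm10 with TopHat2 and quantified genes with HOMER; the versions used for the RNA reads are not given in the sources used here. The deposited table held 1 FPKM value per gene and library; the unit was taken from its length-scaled values. It also held 4 columns of other samples, which were not used. Absolute depth is unknown: the commonest step between low values covered at most 16.2% of them, so no counts were recovered and precision rests on the 2 libraries of each group (r = 0.986 to 0.992 between them). Tests used limma 3.58.1 (trend, robust) on log2(FPKM + 1), a log2 scale computed from the deposited FPKM, which understates changes of low genes, in 1 fit of all 12 libraries over the 12578 genes that reached 1 FPKM in 2 or more libraries, with Benjamini-Hochberg adjustment over all of them and a threshold of 0.05. The scripts were tested on simulated data. Library values are given for the members called among the 5 groups other than NoTag and for the highest member of each class except Snap91. Of the members called only in NoTag against Q+GL+, some have library values. Other members are given by mean or log2 fold change, or only in the counts. The members, roles and lists were chosen with earlier results of these data known, and 3 of the comparisons were added after the data were seen. Alternatives changed the normalization, centring, trend, robust option, filter, pseudocount, libraries in the fit, replicate block and single libraries. Sequences were from RefSeq. Values of 2 members are not reported here, though the counts include them.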

Additional observations from a re-analysis of the deposited data

How the results depend on the processing

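Of 172 recomputed counts of members called, over 12 results, 115 stayed within 1.5 times the main count and 57 moved. The share of all genes called under each alternative is not given here, except for NoTag against Q+GL+ by scaling and level filter. A change in the members and a change over all genes therefore cannot be told apart in these counts. Of 54 calls of a member in a test, 22 held in every alternative, and 155 of 749 recomputed values lost the call. For the 49 calls between 2 groups, no recomputed log2 fold change changed sign. The rest were F values, which have no sign. The values carry no depth, so precision rests on the 2 libraries of each group.

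After quantile normalization the members called were 2 (Q-GL- against Q+GL+), 2 (Q+GL+ against Q-GL+), 3 (Pax3 against Q+GL+) and 4 (Pax7-465 against Q+GL+), and after median centring 0, 2, 2 and 3, in place of 1 each. With a filter of 5 FPKM, Pax3 against Q+GL+ and Pax7-465 against Q+GL+ each gave 2. In Q-GL- against Q+GL+ 0 members were called with any gene above 0 kept, without the NoTag libraries, or with only the groups compared in the fit, and in Pax7-465 against Q-GL+ 0 without the NoTag libraries. With only the groups compared in the fit, Q-GL- against Pax3 gave 4 of 8, and the 6 comparisons of Pax7-465 and of Pax3 with other groups that had called 1 or 2 members gave 0. Fewer libraries then estimate the spread. For the other alternatives that moved a count the cause was not tested.

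Replicate numbers did not pair the samples (r of deviations from -0.158 to 0.173), and with the replicate number as a block the counts were 5 of 47 in the F test, 6 in Q-GL- against Q-GL+, 7 in Q-GL- against Pax3, 27 in NoTag against Q+GL+, 0 in Q-GL- against Q+GL+ and 2 in Pax7-465 against Q+GL+, the other 6 comparisons being as without it.

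Without single libraries, the counts ran from 3 to 5 in the F test, 1 to 2 in Q-GL- against Q-GL+, 0 to 0 in Q-GL- against Q+GL+, 1 to 1 in Q+GL+ against Q-GL+, 2 to 8 in Q-GL- against Pax3, 0 to 1 in Pax3 against Q+GL+, Pax3 against Q-GL+, Pax7-465 against Q+GL+ and Pax7-465 against Q-GL-, 0 to 0 in Pax7-465 against Q-GL+, 0 to 2 in Pax7-465 against Pax3 and 17 to 20 in NoTag against Q+GL+. A group left with 1 library was assumed to vary like the other groups.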
